A study of Mus musculus with 4 samples.

Results

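The genes described here are the ligands, receptors and effectors of the Wnt pathway. They were chosen by name and role, without use of their levels: Wnt ligands, Porcn and Wls, Frizzled receptors, Lrp5 and Lrp6, the secreted Dkk, Sfrp and R-spondin proteins, the Dishevelled proteins, the β-catenin destruction complex with Ctnnb1, and the TCF/LEF factors. Of 57 mouse RefSeq symbols that fit this description, 27 had a row in the deposited tables, which hold 13083 genes after rows were joined to symbols. The other 30, among them Axin2, Sfrp1, Wnt10b, Fzd6, Tcf7 and all Dkk and R-spondin genes, were not analysed here. RNA-seq was performed on 3T3-L1 cells, which are preadipocytes of mouse origin that turn into fat-storing adipocytes after hormonal induction. FLAG-CACUL1 cells stably express FLAG-tagged CACUL1, and FLAG cells carry the empty FLAG vector. The sh-CACUL1 cells stably express a short hairpin RNA against CACUL1, and sh-Luc cells express a hairpin against luciferase. All 4 lines were taken to confluency and induced in medium with 10% serum. The inducers were insulin at 5 μg/ml, IBMX at 0.5 mM, rosiglitazone at 5 μM and dexamethasone at 1 μg/ml. The cells were then kept on insulin and harvested after 8 days. The FLAG and FLAG-CACUL1 lines were selected with G418 and the sh lines with hygromycin B, from drug-resistant colonies after plasmid transfection. Each line was sequenced once, so differences between lines could not be set against a spread between cultures and no test was made.

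Wnt ligands are lipid-modified by Porcn, carried to the cell surface by Wls and bound by Frizzled receptors together with the co-receptors Lrp5 or Lrp6. The receptors act through Dishevelled to restrain the complex of Axin, Apc and Gsk3b that otherwise marks β-catenin for degradation, and β-catenin that escapes it enters the nucleus and acts with TCF/LEF factors. In preadipocytes this canonical branch is known to hold back differentiation into adipocytes. Wnt5a is a ligand best known for signalling that does not pass through β-catenin.

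Values are FPKM, the fragments per transcript scaled to its length and to the mapped fragments of the sample. Depth was not in the files, and the steps between low FPKM values correspond to some 14500000 fragments for FLAG, 14300000 for FLAG-CACUL1, 23900000 in the more deeply sequenced sh-Luc library and 15100000 in sh-CACUL1. Cacul1 itself had 9.61 FPKM in FLAG and 11.8 in FLAG-CACUL1, against 10.2 for sh-Luc and 5.39 for sh-CACUL1. Whether transcripts of the construct were counted in that row is not known. Each of 10 adipocyte markers was lower by 2-fold or more with the FLAG-CACUL1 construct and higher by 2-fold or more with the CACUL1 hairpin, and their summed level was 8541 FPKM in FLAG and 892 in FLAG-CACUL1, against 1721 for sh-Luc and 17818 for sh-CACUL1. The label calls the cells preadipocytes, but Fabp4, an adipocyte marker, had at least 320.4 FPKM in every line. Of 9 preadipocyte or fibroblast markers with a row, 4 were at least 2-fold higher and 1 lower in FLAG-CACUL1, and 3 were higher and 5 lower in sh-CACUL1. Their summed level was 4876, 7021, 3158 and 641 FPKM in the same order. Most of that sum was Col1a1 and Col3a1, at 2412 and 2157 FPKM in FLAG and 156 and 365 in sh-CACUL1. The sum therefore does not describe the other markers, of which Dlk1, Thy1 and Zfp423 were the 3 higher in sh-CACUL1. The 2 macrophage markers with a row summed to 16.8 FPKM in FLAG and at most 1.84 in the other lines, and the endothelial, myoblast and osteoblast or chondrocyte lists, with 1 gene each, reached at most 11.6 FPKM, in FLAG. The sh-Luc line stood apart in the preadipocyte markers Dlk1, at 0.220 FPKM, and Thy1, at 0.663 FPKM, which were at least 21.2 and 34.3 FPKM in the other 3 lines. The part of cell state or of the colony chosen in any result below was not tested, and in these bulk samples fewer cells of a type and less RNA per cell cannot be told apart.

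Among the 27 genes, 3 were higher in FLAG-CACUL1 and lower in sh-CACUL1, by 2-fold or more each time against the control with the same vector: the receptor gene Fzd1, the secreted modulator Sfrp2 and the β-catenin gene Ctnnb1. Because their levels differed in both lines, the 250 bases upstream of their annotated starts are printed here from RefSeq on GRCm38.p6, 5′ to 3′ on the strand of the gene. In GENCODE M21, whose transcript ends can differ from those of RefSeq, Fzd1 lies on the minus strand of chromosome 5 from 4753839 to 4758035, Sfrp2 on the plus strand of chromosome 3 from 83766321 to 83774316, and Ctnnb1 on the plus strand of chromosome 9 from 120929216 to 120960507. The windows were chr5:4758217-4758466 for Fzd1, chr3:83766071-83766320 for Sfrp2 and chr9:120933150-120933399 and chr9:120933328-120933577, which overlap, for 2 annotated Ctnnb1 starts. The RefSeq starts need not be the ends of the GENCODE spans, and both Ctnnb1 windows lie inside the span given. Capitals mark matches on either strand to the TCF/LEF core CTTTGA, the CCAAT box, the GC box GGGCGG and the TATA box TATAAA.
Fzd1: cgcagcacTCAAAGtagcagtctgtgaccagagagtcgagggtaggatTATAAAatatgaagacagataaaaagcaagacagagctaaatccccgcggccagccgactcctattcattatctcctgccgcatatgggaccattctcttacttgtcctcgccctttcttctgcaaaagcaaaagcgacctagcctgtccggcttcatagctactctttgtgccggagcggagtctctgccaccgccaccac
Sfrp2: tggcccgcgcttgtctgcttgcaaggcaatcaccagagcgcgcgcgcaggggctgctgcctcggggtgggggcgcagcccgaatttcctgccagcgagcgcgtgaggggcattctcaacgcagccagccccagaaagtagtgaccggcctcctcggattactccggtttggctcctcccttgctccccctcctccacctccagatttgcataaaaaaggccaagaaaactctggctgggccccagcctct
Ctnnb1, first start: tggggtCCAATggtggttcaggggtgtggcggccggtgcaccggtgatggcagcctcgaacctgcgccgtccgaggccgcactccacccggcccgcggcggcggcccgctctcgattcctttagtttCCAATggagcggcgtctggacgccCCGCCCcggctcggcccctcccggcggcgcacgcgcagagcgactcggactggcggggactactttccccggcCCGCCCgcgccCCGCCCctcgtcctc
Ctnnb1, second start: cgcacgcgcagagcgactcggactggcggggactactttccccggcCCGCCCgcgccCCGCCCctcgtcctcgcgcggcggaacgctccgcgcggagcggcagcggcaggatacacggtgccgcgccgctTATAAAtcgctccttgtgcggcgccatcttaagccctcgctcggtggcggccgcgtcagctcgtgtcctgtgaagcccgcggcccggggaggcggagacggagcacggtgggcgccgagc
The Fzd1 window held the TCF/LEF core on the opposite strand with its first base at position -242 and a TATA box at position -202, counted back from the start. The Sfrp2 window held none of the 4 motifs, and the first Ctnnb1 window held CCAAT boxes at -244 and -123 and GC boxes at -99, -26 and -15. The second held a TATA box at -120 and, at -204 and -193, GC boxes that lie in the overlap of both windows, and no CCAAT box. These motifs are common: the TCF/LEF core was in 13.8% of all 32851 windows, CCAAT in 33.8%, the GC box in 32.7% and the TATA box in 12.4%. For 18 of the 27 genes windows were at hand, 23 in all. Of these 23 windows, 18 held the GC box, 6 CCAAT, 5 the TATA box and 3, of Fzd1, Gsk3b and Lef1, the TCF/LEF core. A match of letters describes the sequence and shows no binding.

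In the comparison of FLAG-CACUL1 with FLAG, which asks what more CACUL1 does to these genes on day 8, Fzd1, Sfrp2 and Ctnnb1 were at least 2-fold higher and Porcn and Tcf7l1 at least 2-fold lower. These 5 genes were 18.5% of the 27, beside 14.7% of all genes, with 7.51% higher and 7.22% lower among all genes. The share of members was near that background with this control. Set against sh-Luc, 5 of the 27 genes, or 18.5%, were past 2-fold in FLAG-CACUL1, beside 9.91% of all genes. Fzd8, Porcn and Sfrp2 were then higher, and Lrp6 and Tcf7l1 were lower. Ratios are log2 of FPKM + 1 in one line over FPKM + 1 in the other, which understates differences of genes with low FPKM. The median ratio was 0.05 over the 27 genes and 0.09 over all genes.

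In the comparison of sh-CACUL1 with sh-Luc, which asks what less CACUL1 does, 10 of the 27 genes were at least 2-fold lower and 0 higher. They were Fzd1, Fzd2, Fzd7, Lrp5, Dvl2, Dvl3, Wls, Sfrp2, Ctnnb1 and Wnt5a. Together they were 37% of the 27 genes, where 21.3% of all genes differed in either direction, 16.4% lower and 4.95% higher. The whole library was shifted downward, with a median ratio of -0.30 over all genes, which was -0.01 after quantile normalization and 0.00 after median-of-ratios scaling. The median of the 27 genes was -0.77, and 19 of them lay below the median of all genes. Centred on that median, 8 of the 27 genes were at least 2-fold lower and 1, Tcf7l2, higher, beside 8.81% and 8.26% of all genes. Quantile normalization left 7 lower and 2 higher, beside 8.29% and 9.01% of all genes, and median-of-ratios scaling left 6 lower and 1 higher, beside 7.77% and 9.07%. The receptors Fzd1, Fzd2 and Fzd7, the co-receptor Lrp5, Dvl2 and Sfrp2 were at least 2-fold lower under each of these scalings, while Ctnnb1 and Wnt5a were so under none of them. The count also depended on the control. Set against FLAG, 5 of the 27 genes, or 18.5%, were at least 2-fold lower in sh-CACUL1 and 0 higher, beside 15.4% and 7.45% of all genes. Of the 10 genes named above, Fzd7 and Lrp5 were among these 5, which also held Fzd8, Gsk3b and Porcn.

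**Figure D1:**
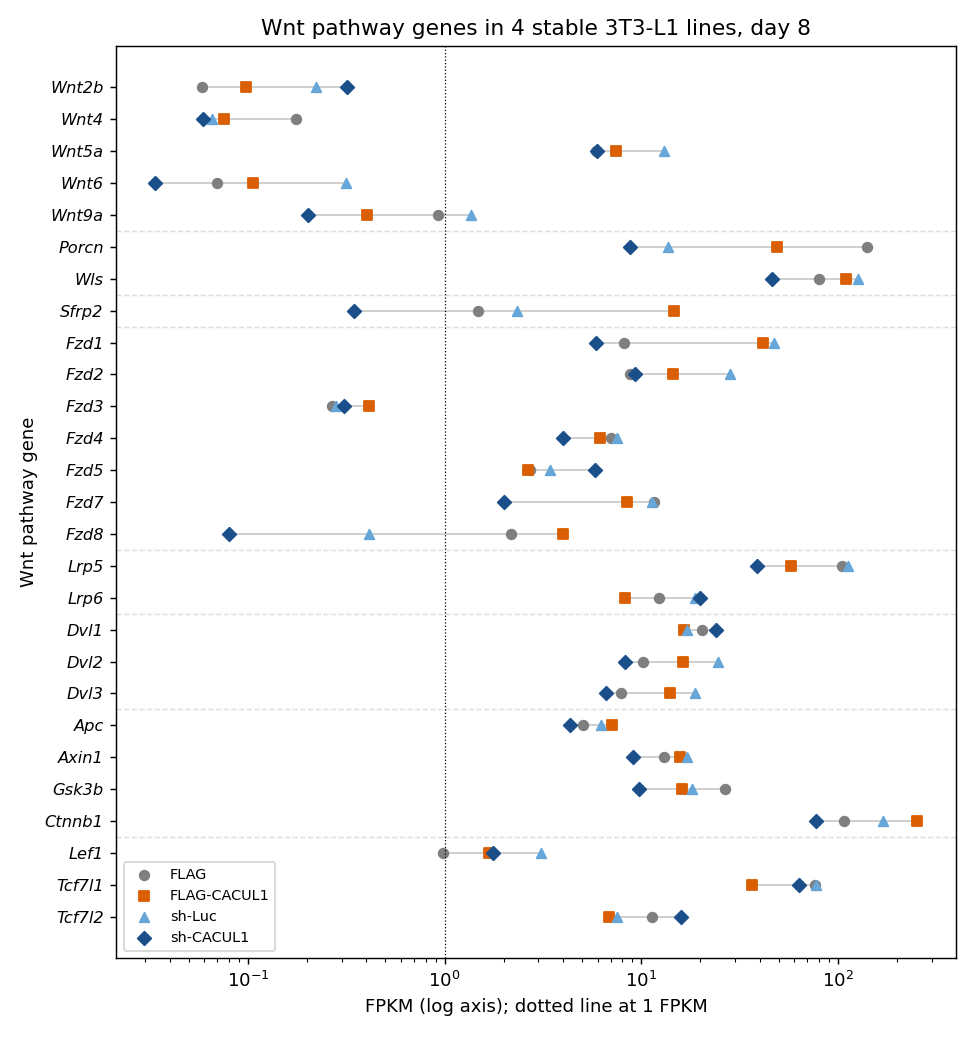
FPKM of the 27 Wnt pathway genes on a log axis, with 1 symbol for each of the 4 lines, grouped by role from ligands at the top to TCF/LEF factors at the bottom. Sfrp2, Fzd1, Fzd8 and Porcn span the widest ranges among genes with at least 1 FPKM in a line, and the sh-CACUL1 line has the lowest symbol in most rows.

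The ligand genes with a row were low apart from Wnt5a. Wnt5a had 5.89 FPKM in FLAG and 7.46 in FLAG-CACUL1, against 13.1 for sh-Luc and 5.97 for sh-CACUL1, so that sh-Luc was high and the other 3 lines were close together. Its log2 ratio was 0.30 for FLAG-CACUL1 and -1.02 for sh-CACUL1, or -0.72 when centred on the median of all genes. Wnt9a had 0.925, 0.404, 1.36 and 0.202 FPKM in the same order of lines. It was lower in both CACUL1 lines than in their controls, with ratios of -0.45 and -0.97. The Wnt9a values stood for about 44.41, 19.12, 107.75 and 10.1 estimated fragments, so the lowest rests on few. Wnt2b, Wnt4 and Wnt6 stayed between 0.0335 and 0.318 FPKM in all lines. Their values stood for between 1.05 and 17.7 estimated fragments, and no ratio is given for them. Wnt5a made up between 82.7% and 91.6% of the summed FPKM of the 5 ligand genes.

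The gene for the enzyme that acylates Wnt ligands, Porcn, differed more between the 2 vector systems than with CACUL1. Porcn, on the minus strand of chromosome X from 8193848 to 8206525, had 140.9 FPKM in FLAG and 49.2 in FLAG-CACUL1, against 13.7 for sh-Luc and 8.79 for sh-CACUL1. Both FLAG lines were above both sh lines, and within each pair the CACUL1 line was the lower. The log2 ratio was -1.50 in FLAG-CACUL1 against FLAG and -0.59 in sh-CACUL1 against sh-Luc, while it was 3.27 between the controls FLAG and sh-Luc. Wls, the carrier of acylated ligands, had 79.7, 109.9, 126.7 and 46.4 FPKM in FLAG and FLAG-CACUL1, then sh-Luc and sh-CACUL1. It was thus lowest in sh-CACUL1, with a ratio of -1.43 there and 0.46 in FLAG-CACUL1. The sh-CACUL1 ratio was -1.22 after quantile normalization and -0.99 after median-of-ratios scaling.

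Sfrp2 encodes a secreted protein with a Frizzled-like domain that binds Wnt ligands outside the cell. It had 1.49 FPKM in FLAG and 14.7 in FLAG-CACUL1, against 2.33 for sh-Luc and 0.347 for sh-CACUL1. The controls were close to each other, with a ratio of -0.42 between FLAG and sh-Luc, and the CACUL1 lines lay on either side of both. The log2 ratio was 2.66 for FLAG-CACUL1 and -1.31 for sh-CACUL1. Set against the other control the ratios were 2.23 and -0.88, so the higher level in FLAG-CACUL1 was found with either control. In estimated fragments the levels were about 43.1, 419.2, 111.7 and 10.48 in the same order, and the lowest value therefore rests on few fragments.

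Of the 7 Frizzled receptor genes with a row, 1 was at least 2-fold higher in FLAG-CACUL1 and 3 were at least 2-fold lower in sh-CACUL1. Among all genes, 7.51% were higher in the first comparison and 16.4% lower in the second. Fzd1 had 8.14 FPKM in FLAG and 41.4 in FLAG-CACUL1, against 47.5 for sh-Luc and 5.88 for sh-CACUL1. It was thus high in FLAG-CACUL1 and sh-Luc and low in FLAG and sh-CACUL1. The log2 ratio was 2.21 for FLAG-CACUL1 and -2.82 for sh-CACUL1, or -2.51 when centred on the median of all genes. The 2 controls differed by nearly as much, with a ratio of -2.41 for FLAG against sh-Luc. Set against the other control, FLAG-CACUL1 had a ratio of -0.19 and sh-CACUL1 a ratio of -0.41, so neither line differed 2-fold from it. The opposite ratios of Fzd1 in the 2 CACUL1 lines therefore depend on the control used.

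Fzd2, a close relative of Fzd1, had 8.82, 14.6, 28.4 and 9.27 FPKM in FLAG and FLAG-CACUL1, then sh-Luc and sh-CACUL1. It stood out by its level in sh-Luc, with a ratio of -1.51 for sh-CACUL1 and of -1.58 for the control FLAG against the same sh-Luc library. Fzd7 had 11.7, 8.52, 11.4 and 2.02 FPKM. Unlike Fzd1 and Fzd2 it was level between the controls, at a ratio of 0.04, and it was low in sh-CACUL1 with a ratio of -2.03 there and -0.41 in FLAG-CACUL1. Against the other control the sh-CACUL1 value of Fzd7 was also more than 2-fold lower. Fzd8 had 2.17, 3.98, 0.415 and 0.0801 FPKM, higher in both FLAG lines than in both sh lines, and its value in sh-CACUL1 corresponded to about 7.21 fragments. Fzd4, a receptor also used by the ligand norrin, had 7.06, 6.15, 7.53 and 4.001 FPKM and was within 2-fold in both comparisons. Fzd5 had 2.71, 2.65, 3.44 and 5.79 FPKM and was the only Frizzled gene above 1 FPKM that was highest in sh-CACUL1, with a ratio of 0.61, or 1.05 after quantile normalization. Fzd3 stayed between 0.268 and 0.414 FPKM.

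The 7 genes summed to 40.8 FPKM in FLAG and 77.7 in FLAG-CACUL1, against 98.9 for sh-Luc and 27.4 for sh-CACUL1. Fzd1 alone held 19.9%, 53.3%, 48% and 21.5% of that sum, and its part followed its own level. In FLAG the largest share was that of Fzd7, at 28.6%, and in sh-CACUL1 that of Fzd2, at 33.9%. Fzd5 held 21.2% of the sum in sh-CACUL1 and between 3.41% and 6.65% in the other 3 lines. Of the stretches of 31 bases in Fzd1 transcripts, 1.27% were also in Fzd2, and 1.46% of those of Fzd2 were in Fzd1. Few reads could therefore fit both genes.

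Lrp5 and Lrp6 encode the paired co-receptors that are phosphorylated when a Wnt ligand binds. Lrp5, on the minus strand of chromosome 19 from 3584828 to 3686564, had 104.7 FPKM in FLAG and 57.9 in FLAG-CACUL1, against 113.2 for sh-Luc and 38.9 for sh-CACUL1. Both CACUL1 lines were below both controls, which were level with each other. The log2 ratio was -0.84 for FLAG-CACUL1 and -1.52 for sh-CACUL1, or -1.21 when centred on the median of all genes. Lrp6 had 12.4, 8.27, 18.7 and 19.9 FPKM, with ratios of -0.53 and 0.08. Lrp5 was the more abundant of the pair in every line, with between 85.8% and 89.4% of their summed FPKM in 3 lines and 66.2% in sh-CACUL1.

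The Dishevelled genes, which code for the adaptors below the receptors, split into Dvl1 on one side and Dvl2 and Dvl3 on the other. Dvl2 had 10.3 FPKM in FLAG and 16.4 in FLAG-CACUL1, against 24.5 for sh-Luc and 8.31 for sh-CACUL1. Dvl3 had 7.88, 14.0, 18.8 and 6.58 FPKM and took the same order of lines, with sh-Luc highest and sh-CACUL1 lowest. Their ratios were 0.63 and 0.76 in FLAG-CACUL1 and -1.46 and -1.38 in sh-CACUL1, and the control FLAG was also more than 2-fold below sh-Luc for both, at -1.18 and -1.16. Dvl1 went the other way, with 20.4, 16.5, 17.2 and 24.04 FPKM and ratios of -0.30 and 0.46. The sum of the 3 genes was 38.6, 46.8, 60.5 and 38.9 FPKM, and Dvl1 held between 28.4% of it in sh-Luc and 61.7% in sh-CACUL1. Exons of Dvl2 overlap those of Acadvl, a gene of fatty acid oxidation on the opposite strand that had 84.0, 30.8, 55.1 and 151.6 FPKM. Strand was not given in the sources used here, so reads in that overlap cannot be told apart, and their part in the Dvl2 values was not tested.

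**Figure D2:**
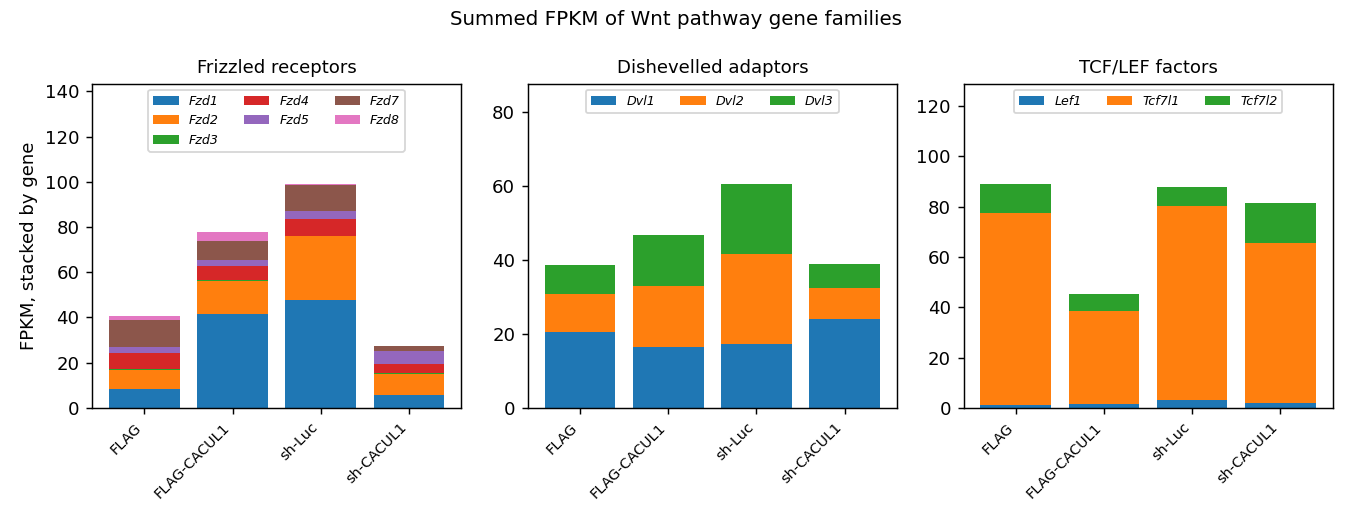
Summed FPKM of the Frizzled, Dishevelled and TCF/LEF genes with a row in each of the 4 lines, stacked by gene on axes that start at 0. The Frizzled bar is tallest in sh-Luc at 98.9 FPKM and shortest in sh-CACUL1 at 27.4 FPKM, and Tcf7l1 fills most of each TCF/LEF bar.

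The genes of the β-catenin destruction complex were within 2-fold in both comparisons. Axin1, the scaffold of the complex, had 13.1, 15.7, 17.1 and 9.03 FPKM in FLAG and FLAG-CACUL1, then sh-Luc and sh-CACUL1. Apc, which holds β-catenin within the complex, had 5.08, 7.13, 6.26 and 4.33 FPKM. Gsk3b, the kinase that phosphorylates β-catenin, had 26.6, 16.1, 18.0 and 9.74 FPKM. All 3 were lowest in sh-CACUL1, with ratios of -0.85 for Axin1, -0.45 for Apc and -0.83 for Gsk3b. Centred on the median of all genes, these were -0.55, -0.14 and -0.52. For Apc the ratio was 0.03 after quantile normalization and -0.07 after median-of-ratios scaling. The ratios of the 3 genes in FLAG-CACUL1 were 0.24, 0.42 and -0.69.

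Ctnnb1, which encodes β-catenin, was the most abundant of the 27 genes in FLAG-CACUL1, sh-Luc and sh-CACUL1. It had 107.3 FPKM in FLAG and 253.6 in FLAG-CACUL1, against 170.3 for sh-Luc and 77.1 for sh-CACUL1. As with Sfrp2, the CACUL1 lines lay on either side of both controls, which differed from each other by a ratio of -0.66. The log2 ratio was 1.23 in FLAG-CACUL1, and it was 1.22 after quantile normalization and 1.08 after median-of-ratios scaling. In sh-CACUL1 it was -1.13 in the values as deposited, -0.83 when centred on the median of all genes and -0.69 after median-of-ratios scaling. Set against the other control the ratios were 0.57 and -0.47, in the same directions but within 2-fold.

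Of the DNA-binding effectors, Tcf7l1 was the most abundant in every line. Tcf7l1, known mainly as a repressor, lies on the minus strand of chromosome 6 from 72626378 to 72789254 and had 76.6 FPKM in FLAG and 36.7 in FLAG-CACUL1, against 77.1 for sh-Luc and 63.6 for sh-CACUL1. The controls were level, at a ratio of -0.01, and FLAG-CACUL1 was the line that was low, with a ratio of -1.04 against FLAG and -0.27 in sh-CACUL1. Tcf7l2, whose product acts as activator or repressor, had 11.4, 6.84, 7.54 and 15.95 FPKM. Its ratio was -0.66 for FLAG-CACUL1 and 0.99 for sh-CACUL1, and the latter was 1.29 when centred on the median of all genes, 1.47 after quantile normalization and 1.40 after median-of-ratios scaling. It thus lay just under 2-fold in the values as deposited and above it under each scaling. Lef1, a factor that needs β-catenin to activate genes, had 0.977, 1.68, 3.10 and 1.77 FPKM, highest in sh-Luc. Summed, the 3 genes had 88.9, 45.3, 87.8 and 81.3 FPKM.

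**Figure D3:**
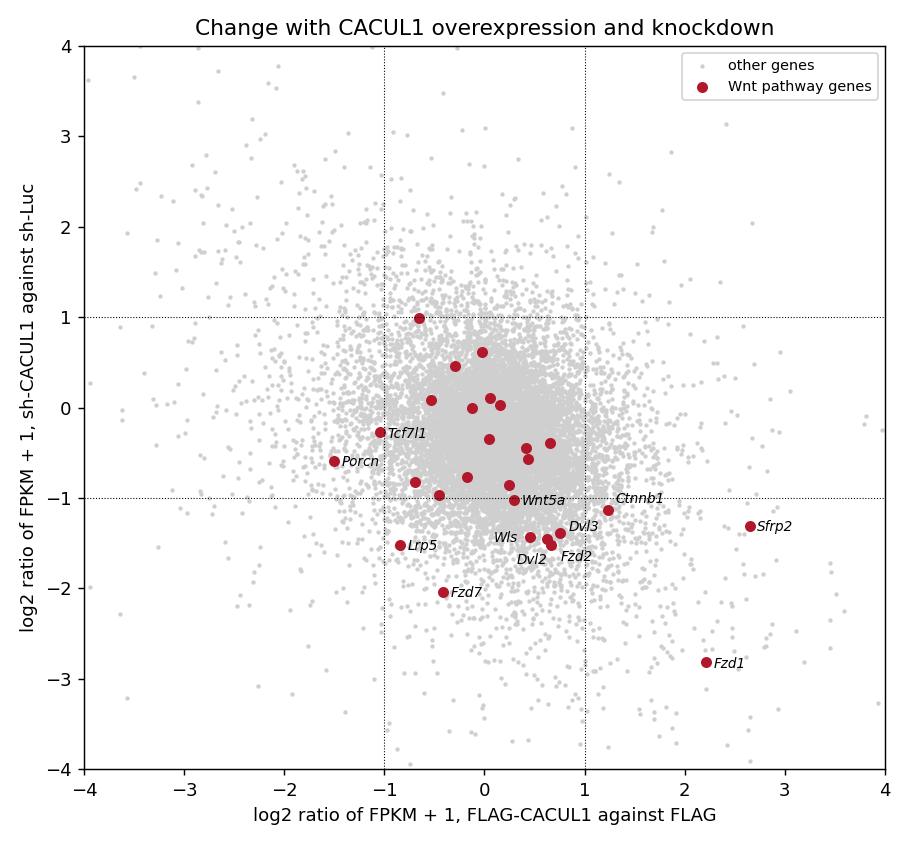
The log2 ratio of FPKM + 1 in FLAG-CACUL1 against FLAG (x axis) and in sh-CACUL1 against sh-Luc (y axis), with 1 point per gene, red for the 27 Wnt pathway genes and grey for the others, and dotted lines at 2-fold. Fzd1, Sfrp2 and Ctnnb1 lie in the lower right field, no Wnt pathway gene lies in the other corner fields, and 55 grey points lie outside the drawn range.

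The opposite pattern of Fzd1, Sfrp2 and Ctnnb1, at least 2-fold higher with more CACUL1 and at least 2-fold lower with less, was that of 3 of 27 genes, or 11.1%, beside 395 of all genes, or 3.02%. After either scaling, or when centred on the median of all genes, Fzd1 and Sfrp2 still took it and Ctnnb1 did not. These 2 were 7.41% of the 27, beside 1.91% of all genes after quantile normalization, 1.59% after median-of-ratios scaling and 1.88% when centred. With the other control none of the 3 took it, while Fzd8 and Porcn did, or 7.41% beside 2.99% of all genes. The reverse pattern, lower and then higher, which the adipocyte markers took, had 0 of the 27 genes and 1.69% of all genes. Likewise 0 of the 27 were at least 2-fold lower in both CACUL1 lines, beside 0.803% of all genes, or higher in both, beside 0.283%. With a pseudocount of 0.1 FPKM, or with none, Wnt9a was at least 2-fold lower in both. This was 3.7% of the 27 genes, beside 1.88% and 2.61% of all genes, respectively. Without the limit of 2-fold, 13 of the 27 genes were higher in FLAG-CACUL1 and lower in sh-CACUL1. Another 8 were lower in both, 4 were lower and then higher and 2 were higher in both. Over all 13083 genes these patterns had the same order of size, with 5680, 3306, 2103 and 1994 genes. Fabp4 had 4991 FPKM in FLAG and 320.4 in FLAG-CACUL1, against 1020 for sh-Luc and 12543 for sh-CACUL1, so that its order of lines was that of Ctnnb1 turned around. The preadipocyte markers had no common order of lines. Of 9 with a row, Pdgfra and Pdgfrb were high in the same lines as Fzd1, whereas Dlk1 and Thy1 were lowest in sh-Luc.

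**Figure D4:**
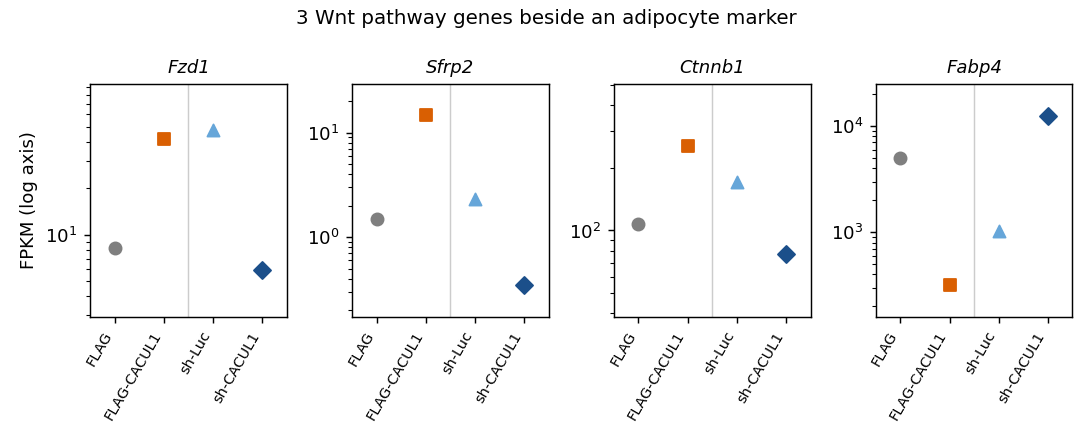
FPKM in each line, on a log axis of its own for each gene, of Fzd1, Sfrp2 and Ctnnb1 beside the adipocyte marker Fabp4. A grey line parts the FLAG lines from the sh lines. Fzd1 is at 41.4 FPKM in FLAG-CACUL1 and 47.5 FPKM in sh-Luc, whereas Fabp4 is lowest in these 2 lines.

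The distance between the controls, FLAG against sh-Luc, shows how far these genes differed with no CACUL1 construct in either line, although vector, drug and colony cannot be told apart there and each control is shared with another comparison. Of the 27 genes, 8 differed at least 2-fold, or 29.6%, beside 21% of all genes, 8.58% higher and 12.4% lower. When centred on the median of all genes, which was -0.185, 4 of the 27 did, or 14.8%, beside 19.2% of all genes. The share of members was then near the background. In the values as deposited Porcn and Fzd8 were higher in FLAG, and Fzd1, Fzd2, Dvl2, Dvl3, Lef1 and Wnt5a were lower. The control difference of Porcn, 3.27, was larger than its ratio in either CACUL1 line. By contrast, the controls were within 2-fold for Sfrp2, Ctnnb1, Fzd7, Lrp5, Wls and Tcf7l1.

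Beyond the 27 genes, 98 further Wnt pathway genes were listed by role, of which 75 had a row. In FLAG-CACUL1 8 of the 75, or 10.7%, were at least 2-fold higher and 4, or 5.33%, lower, beside 7.51% and 7.22% of all genes. In sh-CACUL1 0 were higher and 23, or 30.7%, lower, beside 4.95% and 16.4% of all genes, and the median ratio was -0.65 beside -0.30. Centred on the median of all genes, 3 of the 75 were higher and 15, or 20%, lower, beside 8.26% and 8.81% of all genes. In the values as deposited the lower genes were spread over the roles: 3 of 8 other receptors and co-receptors, 2 of 5 inhibitors at the cell surface, 2 of 18 cytoplasmic components, 3 of 14 genes of the planar polarity and calcium branch, 5 of 18 nuclear cofactors and 9 of 16 genes known as Wnt targets in other cells. Some genes stand in 2 of these lists.

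Of the 75 genes, 7, or 9.33%, were at least 2-fold higher in FLAG-CACUL1 and at least 2-fold lower in sh-CACUL1, beside 3.02% of all genes. When centred on the median of all genes, 4 of them, namely Tle2, Tle5, Sox9 and Ccnd1, took this pattern, or 5.33% beside 1.88%, while Apcdd1, Ctbp1 and Fst did not. With the other control none of the 7 took it, while Cxxc5, Ccn4 and Ccn5 did, or 4% beside 2.99%. Myc and Fst, the latter with ratios of -1.21 and 2.11, were then lower in FLAG-CACUL1 and higher in sh-CACUL1, or 2.67% beside 1.03%. Among corepressors that act with TCF/LEF factors, Tle2 had 1.57, 16.7, 24.8 and 3.11 FPKM in FLAG and FLAG-CACUL1, then sh-Luc and sh-CACUL1, with ratios of 2.79 and -2.65. Tle5, a shorter relative that can oppose the others, had 129.9, 399.1, 316.1 and 79.2 FPKM, with ratios of 1.61 and -1.98. Ctbp1, a corepressor as well, had ratios of 1.10 and -1.005. These 3 were all high in FLAG-CACUL1 and sh-Luc, while Tle1, Tle3 and Tle4 were within 2-fold in both comparisons. Sox9, a transcription factor that can oppose β-catenin, had ratios of 1.42 and -2.39. Apcdd1, a membrane protein that binds Wnt ligands and receptors and is a target in other cells, had 4.36, 10.3, 15.3 and 1.16 FPKM, with ratios of 1.08 and -2.91. Ccnd1, the cyclin D1 gene and a target in other cells, had 6.46, 81.3, 90.8 and 25.1 FPKM, with ratios of 3.46 and -1.81. Fst, which encodes the activin antagonist follistatin, had ratios of 1.94 and -1.04. For all 7 of these genes, as for Fzd1, the control FLAG was also more than 2-fold below sh-Luc.

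Other genes known as Wnt targets in other cells did not take this pattern against the control with the same vector. Jun and Fosl1, which encode parts of the AP-1 factor, were at least 2-fold lower in both CACUL1 lines. They were 2.67% of the 75 genes, beside 0.803% of all genes. The ratios were -1.21 and -1.98 for Jun and -2.25 and -1.74 for Fosl1. Set against the other control, FLAG-CACUL1 had ratios of -0.45 for Jun and 0.02 for Fosl1, within 2-fold. With that control 0 of the 75 genes were lower in both, beside 0.497% of all genes. Myc had 12.8, 8.13, 20.7 and 38.3 FPKM and was highest in sh-CACUL1, with a ratio of 0.85 there and -0.59 in FLAG-CACUL1. Cd44, Twist1, Ccn4 and Ccn5 were at least 2-fold lower in sh-CACUL1, with ratios of -2.14, -1.55, -1.71 and -1.80. Their ratios in FLAG-CACUL1 were within 2-fold, at 0.88, 0.36, 0.50 and 0.03.

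**Figure D5:**
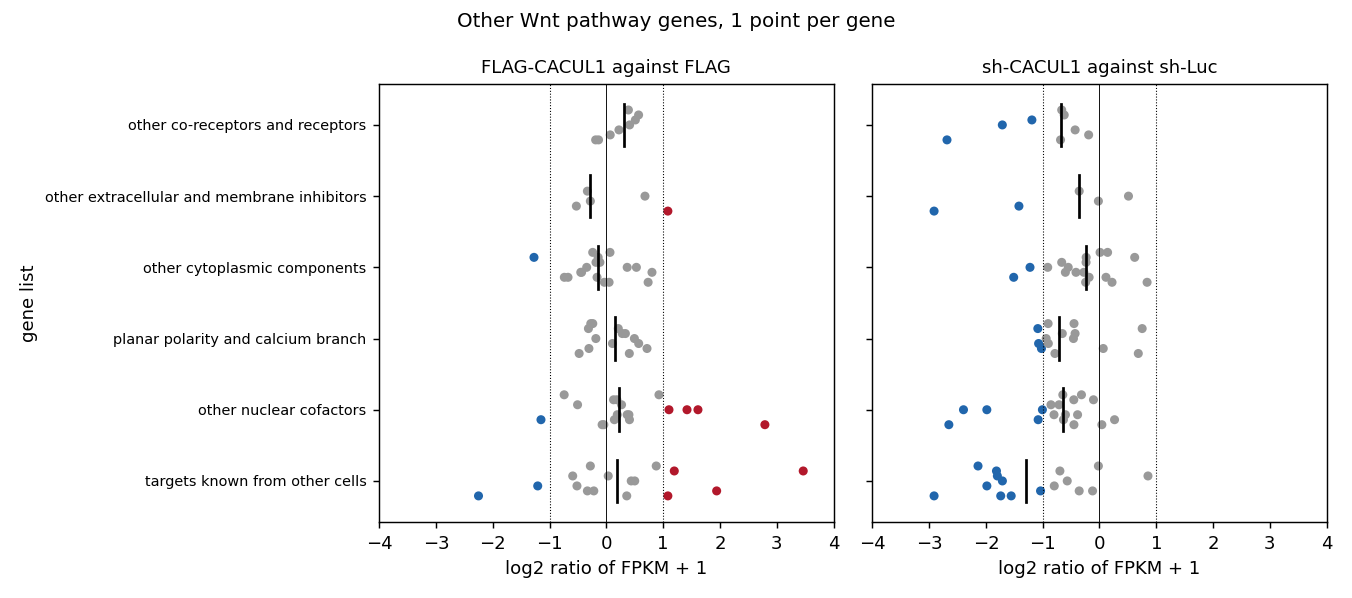
Log2 ratios of FPKM + 1 for the other Wnt pathway genes in 6 lists by role, with 1 point per gene and a black bar at the median of each list, for FLAG-CACUL1 against FLAG on the left and sh-CACUL1 against sh-Luc on the right. Red points are at least 2-fold higher and blue points at least 2-fold lower. The right panel has 0 red points, and its lowest median, at -1.30, is that of the targets known from other cells, a list in which Lef1 also stands.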

How the data were processed

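RNA was extracted on differentiation day 8, and a company made and sequenced the mRNA-seq libraries. The authors deposited FPKM values for 13110 RefSeq transcript rows per sample, and all were above 0. The submitters' processing notes name mm10, while the aligner, the FPKM program and any filter are not given in the sources used here. Rows were joined to symbols through GENCODE M21 and then the RefSeq table of GRCm38.p6, and rows of 1 symbol were summed. No Wnt pathway gene had more than 1 row, and 10 had several transcripts in their row. Ratios used a pseudocount of 1 FPKM and a limit of 2-fold, each line was compared with the control of its own vector, and no test was possible with 1 sample per line. The genes, lists and comparisons were chosen with earlier results of these data known. By rule, genes with at least 1 FPKM in any sample were named, as were other Wnt genes past 2-fold in both comparisons. Tle1, Tle3, Tle4, Myc, Cd44, Twist1, Ccn4 and Ccn5 were named after their values were seen. Alternatives covered the pseudocount, low values, scaling, row choice, fold limit and control, and centring on the median of all genes was added after seeing the data. The scripts were tested on simulated data. Python 3.11.15 with numpy 2.4.6, pandas 2.3.3 and matplotlib 3.10.9 was used.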

Additional observations from a re-analysis of the deposited data

How the results depend on the processing

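No paired analysis was possible because each line had 1 sample. Of the 23 ratios of at least 2-fold among the 3 comparisons, all 23 stayed past 2-fold with a pseudocount of 0.1 or none. They also did with the row of highest mean FPKM. This was fixed in advance, because a smaller pseudocount only widens a ratio and no Wnt pathway gene had more than 1 row. All 23 ratios kept their sign under the scalings. Past 2-fold there stayed 18 after quantile normalization, 15 after median-of-ratios scaling and 17 when centred on the median of all genes. The count of genes past 2-fold between the controls was then 5, 4 and 4, respectively, and not 8, or 18.5%, 14.8% and 14.8%, beside 19%, 19.1% and 19.2% of all genes. Without a pseudocount 7, 14 and 11 genes were past 2-fold in the 3 comparisons, or 25.9%, 51.9% and 40.7%, beside 28.8%, 36.7% and 36% of all genes. Wnt9a was then at least 2-fold lower in both CACUL1 lines, as it was with a pseudocount of 0.1. At a limit of 3-fold 2 genes were left in each of the 3 comparisons. The share of all genes at that limit is not given, so these counts are not set against a background. With the other control, 11 of 15 ratios kept their sign and 4 stayed past 2-fold, and 5 of the 27 genes were past 2-fold in sh-CACUL1. The sign was turned for Fzd1 (-0.19) and Porcn (1.77) in FLAG-CACUL1 and for Fzd2 (0.066) and Wnt5a (0.017) in sh-CACUL1. The cause was not tested. Depth limits Wnt2b, Wnt4, Wnt6 and the sh-CACUL1 values of Sfrp2, Fzd8 and Wnt9a, which rest on few fragments.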
